A study of Mus musculus with 2 samples.

Results

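*Sp100*, *Sp110* and *Sp140* lie side by side on mouse chromosome 1, in a stretch of much repeated sequence that the reference genome (GRCm38) holds with a gap. The stretch was taken as chr1:84935282-85793440, the interval between the ends of its neighbours *Slc16a14* and *Cab39*, and is called the cluster here. The 3 genes were chosen by name and place out of the 497 protein-coding genes that start in the analysed part of chromosome 1, and the rule itself uses no measured value. All pairs with an end in the cluster were taken, which were 49295 of 5767991 pairs in wild-type cells and 36535 of 4412861 pairs in *Lin28a* knockout cells.

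Hi-C cross-links DNA that lies close together in the nucleus, cuts it, joins the ends and sequences each joined piece from both sides, so each read pair records 1 contact. Mouse embryonic stem (ES) cells of 2 kinds were compared, wild-type cells and *Lin28a* knockout cells, with 1 library each, and the knockout removes the RNA-binding protein that the study examines in the nucleolus. Both were kept for 2 days with feeder fibroblasts, leukemia inhibitory factor and the 2 inhibitors of the 2i medium on gelatin, and were fixed in 1% formaldehyde for 10 min. The study used *Lin28a* knockout ES cells made as CRISPR/Cas9 clones and also ES cells from knockout mice, and which of them, and which line, gave these libraries is not given in the sources used here. The labels name 2 replicates for each group, yet each group has a single list of pairs in which replicates cannot be told apart, so no test between the groups was possible. All intervals are 95% intervals for counting error alone. Contacts of DNA do not show whether *Lin28a* or any other gene is expressed, so the knockout itself was not checked here. The analysed pairs have their first end on the first 91 Mb of chromosome 1. They gave 9213379 and 7046862 ends on chromosome 1 in wild-type and knockout cells, with second ends beyond that part included. Of these ends 93.1% and 92.5% had a mapping quality of 30 or more.

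The SP proteins carry a domain that binds other SP proteins, together with domains that read DNA or modified histones. SP100 is a defining protein of PML nuclear bodies, round assemblies in the nucleus that take part in the response to interferon and to viruses. SP110 and SP140 are known mostly from immune cells, where they bear on resistance to bacteria that live inside cells. In house mice the neighbourhood of *Sp100* carries a large array of related repeats, whose size is known to differ among mice.

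The cluster spans 858159 bp, of which 100000 bp (85347104 to 85447103) are an assembly gap. It holds 23 genes in whole, of which 10 are protein-coding, 10 are pseudogenes, 2 are long noncoding RNA genes and 1 is a miRNA gene. *Sp110* lies on the minus strand at chr1:85570735-85610850 and *Sp140* on the plus strand at chr1:85587491-85645040. Their gene models overlap by 23360 bp, so ends in the overlap count for both genes. *Sp100* follows on the plus strand at chr1:85649948-85709998. All 3 genes are on the right-hand side of the gap. Of the bases of *Sp110*, 48.9% start a word of 100 bases that occurs once in the genome, and this share is 52.7% for *Sp140* and 91.3% for *Sp100*. *Sp100* is thus mostly unique sequence, while about equal parts of *Sp110* and *Sp140* are unique and repeated.

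The repeats reach the start sites of the genes. RefSeq promoter windows of 300 bases (250 before and 50 after each start, GRCm38) were aligned to the cluster and to 5 short contigs that the assembly does not place on the chromosome. The rest of the genome was not searched for copies. The window of *Sp140* matched 11 other places over at least 250 bases at 99.0 to 99.7% identity, 2 of them in the cluster and 9 on contigs. The window of the second *Sp110* start also matched 11 other places, at 95.3 to 98.7%. The first *Sp100* window matched 6 other places at 97.7 to 98.7%. The window of the outer *Sp110* start had 14 matches from 75.8 to 98.0%. Its lowest values, up to 78.1%, came from alignments of 310 columns, longer than the window, so they hold gaps that count as differences. These values therefore do not show that the copies are distant.

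The 120 bases before 3 of these starts are shown because a read from them can belong to several places. RefSeq's predicted transcripts extend over some of these bases, and the starts are those of its curated transcripts. Sequences are given 5′ to 3′ along the gene, in lower case, with capitals where a copy differs from the gene's own sequence. The *Sp140* stretch (chr1:85600583-85600702, plus strand) was found without any difference at 7 other places, 2 in the cluster and 5 on contigs, and with 1 difference at 3 places on contigs, of which 1 is shown (GL456210.1:115249-115368).
Sp140: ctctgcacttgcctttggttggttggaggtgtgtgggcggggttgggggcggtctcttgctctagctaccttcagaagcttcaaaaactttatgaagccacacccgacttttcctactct
Sp140 copy on GL456210.1: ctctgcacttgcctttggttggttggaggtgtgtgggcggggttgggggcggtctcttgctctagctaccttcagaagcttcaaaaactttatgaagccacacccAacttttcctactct

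The *Sp100* stretch (chr1:85649868-85649987, plus strand) was found without any difference at 3 other places, 1 in the cluster and 2 on contigs. Another 3 places had 1 difference, among them the copy in the cluster that is shown (chr1:85199463-85199582, plus strand), which ends next to the start of the predicted gene *Gm7609*.
Sp100: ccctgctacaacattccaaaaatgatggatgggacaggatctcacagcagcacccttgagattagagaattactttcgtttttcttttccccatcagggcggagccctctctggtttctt
Sp100 copy near Gm7609: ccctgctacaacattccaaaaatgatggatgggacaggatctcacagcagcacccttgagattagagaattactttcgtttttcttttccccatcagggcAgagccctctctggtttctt

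The stretch before the second *Sp110* start (chr1:85598811-85598930, minus strand) had no identical copy in the cluster or on the contigs. The nearest of its 11 copies without gaps, in the cluster (chr1:85111658-85111777, plus strand), had 3 differences. The nearest on a contig had 4 (GL456211.1:165149-165268, minus strand), and the farthest had 10 (GL456372.1:12565-12684, minus strand).
Sp110: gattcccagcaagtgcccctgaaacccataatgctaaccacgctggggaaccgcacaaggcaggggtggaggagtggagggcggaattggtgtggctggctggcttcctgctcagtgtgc
Sp110 copy in the cluster: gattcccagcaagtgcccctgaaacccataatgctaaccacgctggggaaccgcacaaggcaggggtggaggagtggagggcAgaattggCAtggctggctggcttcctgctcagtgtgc
Sp110 copy on GL456211.1: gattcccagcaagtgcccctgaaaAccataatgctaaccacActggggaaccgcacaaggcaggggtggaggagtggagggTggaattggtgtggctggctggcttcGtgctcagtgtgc
Sp110 copy on GL456372.1: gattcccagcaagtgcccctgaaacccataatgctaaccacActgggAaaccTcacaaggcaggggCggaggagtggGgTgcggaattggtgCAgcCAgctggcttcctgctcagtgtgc
A read that lies within the *Sp140* or *Sp100* stretch can thus match several places equally well, while the *Sp110* stretch shown differs as a whole from each copy found. The stretch before the outer *Sp110* start, which is not shown, had 14 copies without gaps, with at most 6 differences. Of these, 1 copy in the cluster was identical.

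The *Sp100* and *Sp110* start regions hold a similar run of 18 bases that differs at 1 position, shown so that the pair can be compared. The letters searched, on both strands, were ACTTTCNTTTTTCTTTTC, and they were made from these sequences after they had been seen, with N at the position that differs. The match of *Sp100* is at chr1:85649939-85649956, before its start, and the match of *Sp110* is at chr1:85598786-85598803, just after its second start.
Sp100 match: ACTTTCGTTTTTCTTTTC
Sp110 match: ACTTTCATTTTTCTTTTC
Of 32851 promoter windows of the genome 4 held these letters (0.0122%), and they belonged to *Sp100* (2 windows), *Sp110* and *Gm7609*. The return of *Sp100* and *Sp110* was fixed by how the letters were made, both *Sp100* windows hold the same site, and the copy near *Gm7609* shown above holds it too. The count therefore says nothing of how rare such a run is by itself.

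Pair ends were thin over the cluster in both libraries. Wild-type cells had 53542 ends in it, or 70.6 per kb of assembled sequence, against 123 per kb in flanks of 1.2 Mb on either side of the surrounding window, a ratio of 0.573 (0.568 to 0.578). Knockout cells had 39423 ends, or 52.0 per kb against 93.0, a ratio of 0.559 (0.553 to 0.565). The cluster held 0.581% and 0.559% of all ends of the analysed pairs on chromosome 1. Of its bases 51.5% start a unique 100-base word, against 94.7% of the flanks. Divided by unique bases in place of all bases, the ratio was 1.05 in wild-type and 1.03 in knockout cells, so the thin coverage followed the share of unique sequence. With words of 50 bases it was 1.51 and 1.47, so how far unique sequence accounts for the coverage depends on the length of word. All ends were counted in each case, also those in repeated sequence.

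Among the 3 genes, *Sp110* had 2963 ends in wild-type and 2112 in knockout cells, or 73.9 and 52.6 per kb. *Sp140* had 4613 and 3457 ends, or 80.2 and 60.1 per kb. *Sp100* had 6756 and 4780 ends, or 113 and 79.6 per kb. *Sp100* was thus close to the flanks in density, and *Sp110* and *Sp140* were well below them. Per unique kb the order turned in both libraries, with 151 and 108 ends for *Sp110*, 152 and 114 for *Sp140*, and 123 for *Sp100* in wild-type cells and fewer than for *Sp110* and *Sp140* in knockout cells too. The other 7 protein-coding genes inside the cluster, 6 of which lie in its repeats, ran from 49.5 (*Gm7592*) to 109 (*A630001G21Rik*) ends per kb in wild-type cells and from 34.8 to 75.9 for the same genes in knockout cells. Outside it, *Slc16a14*, a member of the monocarboxylate transporter family, had 140 and 108 per kb, and *Cab39*, a scaffold protein of the LKB1 kinase complex, had 101 and 79.2.

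Mapping quality fell in step. Ends in *Sp110* had a quality of 30 or more in 80.5% of cases in wild-type and 80.7% in knockout cells, and in *Sp140* in 80.5% and 80.9%. In *Sp100* the shares were 94.9% and 94.7%, like the 95.3% and 94.7% of the flanks. A lowered share at this quality was not confined to repeats. *Gpr55*, outside the cluster and 99.8% unique, had 84.9% and 82.8%. A quality of 40 or more separated *Sp110* and *Sp140* further from *Sp100*. It was reached by 6.99% and 5.78% of ends in *Sp110*, by 8.78% and 8.91% in *Sp140* and by 85.3% in *Sp100* in both libraries, against 92.3% and 91.9% in the flanks. Most ends in *Sp110* and *Sp140* were thus below the top of the quality scale, and their placing among the copies is less certain than that of ends in *Sp100*. The deposited ends have a quality of at least 11, so reads of lower quality are not seen here.

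In bins of 25 kb the coverage fell steeply at the *Slc16a14* side and rose slowly over *Sp110*, *Sp140* and *Sp100*. The lowest bin with at least 100 ends, near the left edge of the gap, had 0.104 of the chromosome's median bin in wild-type cells and 0.101 in knockout cells, and 3 bins of the gap had 0 ends. The first bin within *Sp100* (from 85650001) had 2535 and 1724 ends, the first beyond the gap to reach the chromosome's median in wild-type cells (1.01) and close to it in knockout cells (0.883). Of the 35 bins of the cluster 23 had under 50% unique sequence. Over 45 bins with ends, the unique share and the coverage had a Pearson r of 0.890 in wild-type and 0.876 in knockout cells. This is a description, since neighbouring bins share repeats and a library.

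**Figure D1:**
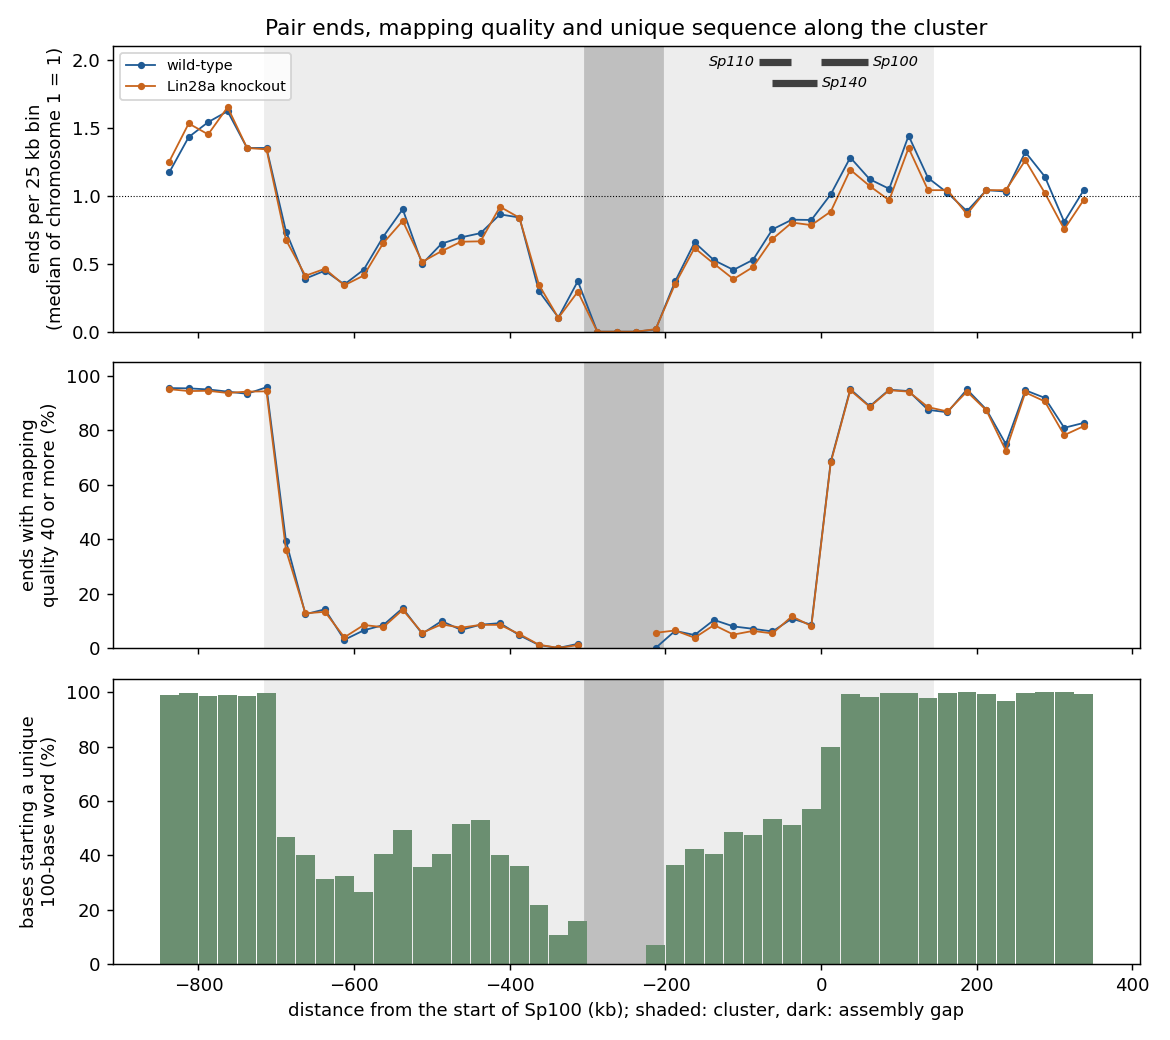
The x axis is the distance from the start of Sp100 in kb, with the cluster shaded and the assembly gap dark. The panels give, for each 25 kb bin, the ends relative to the median bin of chromosome 1, the percent of ends with a mapping quality of 40 or more, and the percent of bases that start a unique 100-base word. Both libraries drop at the left edge and recover at Sp100, with 85.3% of ends in Sp100 at a quality of 40 or more against 6.99% and 5.78% in Sp110.

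The knockout had slightly fewer ends in the cluster than the depth of the libraries gives. Relative to all ends of the analysed pairs on chromosome 1, the knockout over wild-type ratio was 0.963 (0.950 to 0.975) for the cluster. It was 0.932 (0.881 to 0.986) for *Sp110*, 0.980 (0.937 to 1.02) for *Sp140* and 0.925 (0.891 to 0.960) for *Sp100*. Among 96 windows of equal length along the chromosome the ratio ran from 0.957 to 1.07 with a median of 1.02, and 2 windows were below the cluster. These windows leave out the neighbourhood of the cluster, the nearest ending at 82808787 on the left and starting at 87957742 on the right. The flank on the left had a ratio of 0.967 (0.959 to 0.975), that on the right 1.00 (0.996 to 1.01), and the nearest windows further right 0.958, 0.970 and 0.957. The 500 kb next to the cluster had 1.00 (0.990 to 1.01) on the left and 0.990 (0.978 to 1.00) on the right. Values about as low as that of the cluster were thus also found in its wider neighbourhood, but not over the 500 kb on either side. Of 31 cluster bins of 25 kb with enough ends, 3 were below 0.9, where 0.691% of all bins were, and 1 was above 1.1, where 4.55% were. The 3 low bins were the last before the gap (0.806), a bin of *Gm7592* (0.866) and the first bin within *Sp100* (0.889). Bins of the cluster have fewer ends than most, and so a wider spread from counting. The mostly unique right-hand stretch beyond *Sp100* had a ratio of 0.944 (0.916 to 0.973), against 0.977 (0.960 to 0.994) in the repeated stretch left of *Sp110*. The lower value was thus also present in this mostly unique stretch, and the part of read placement in it was not tested. Fewer copies of the sequence and fewer ligated ends per copy cannot be told apart in these data.

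The assembly holds more sequence of this kind on contigs. GL456210.1, GL456211.1, GL456212.1 and GL456221.1 are assigned to chromosome 1 without a position, and GL456372.1 is assigned to no chromosome. Together they are 800703 bp long. Of the 100-base words of the first 4, 40.8 to 50.1% also occur in the cluster, and of GL456372.1 21.2%. GL456221.1 holds *Csprs*, a gene named as a component of the *Sp100* repeat array, beside a pair of genes that are described as SP family members.

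These 5 contigs paired with the cluster far more than with its flanks. Wild-type cells had 1717 such pairs in the cluster (3.48% of its pairs) and 1323 in the flanks (0.540%), a ratio of 6.45 (6.00 to 6.93). Knockout cells had 1246 pairs (3.41%) and 1062 (0.572%), a ratio of 5.96 (5.49 to 6.48). In the 96 windows of equal length, all of them beyond the flanks, the share reached 0.489% in wild-type and 0.610% in knockout cells, with medians of 0.0895% and 0.0901%. The flanks were thus above nearly all of these windows themselves. By gene, 4.80% and 4.21% of pairs of *Sp110* were with the 5 contigs, 3.99% and 3.74% of pairs of *Sp140*, and 1.68% and 2.16% of pairs of *Sp100*. *Sp110* and *Sp140* share words with the contigs, so part of their pairs may be misplaced. *Cab39*, 99.7% unique, still had 1.07% and 1.16%, and *Slc16a14*, 98.6% unique, had 1.26% and 0.613%. The knockout over wild-type ratio of the cluster's own share of contig pairs, without the flanks, was 0.979 (0.910 to 1.05), so no difference in this share was detectable at this depth.

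The excess was largest for GL456372.1, at 11.7 (8.51 to 16.2) in wild-type and 9.13 (6.37 to 13.2) in knockout cells, from 134 and 88 pairs. It was 8.11 (6.98 to 9.44) and 7.86 (6.58 to 9.39) for GL456210.1, from 462 and 323 pairs. The other 3 contigs ranged from 5.22 to 6.22 over both libraries. For comparison, the unplaced contig JH584304.1 had 1.19 (0.578 to 2.27) and 1.52 (0.637 to 3.29), and GL456239.1 had 1 and 2 pairs with the cluster. Of all pairs that GL456372.1 made with the analysed part, 24.4% and 21.0% were with the cluster, and for the other 4 contigs this was 12.2 to 18.2% in wild-type cells.

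The side of the contacts split the contigs into 2 sets. Per end of the 500 kb on either side, 93.7% unique on the left and 99.0% on the right, GL456210.1 made 78 wild-type pairs with the left and 149 with the right, a left over right ratio of 0.521 (0.391 to 0.690), and the knockout ratio was 0.521 (0.366 to 0.734). GL456372.1 also leaned to the right, at 0.323 (0.153 to 0.633) and 0.426 (0.204 to 0.842). The other 3 leaned to the left, with 2.00 (1.51 to 2.67) and 2.07 (1.50 to 2.89) for GL456211.1, 1.51 (1.08 to 2.11) and 1.60 (1.13 to 2.27) for GL456212.1, and 1.53 (1.09 to 2.17) and 2.01 (lower bound 1.37) for GL456221.1. Each contig thus leaned to the same side in both libraries, and no interval held 1. With a quality of 30 or more at both ends the sides were kept, but the intervals of GL456221.1 in wild-type cells (0.868 to 1.93), GL456212.1 in knockout cells (0.988 to 2.24) and GL456372.1 in knockout cells (0.192 to 1.03) then held 1. Inside the cluster the 50 kb bin with most pairs of GL456211.1 per end began at 85250001 in both libraries, on the left of the gap, and that of GL456372.1 at 85450001, just right of it. For GL456210.1 it was also the bin from 85450001, with 175 and 202 pairs per 10000 ends, and in wild-type cells the bin from 85550001, over *Sp110* and *Sp140*, had the same value (175). In the 25 kb bins from 85250001 and 85275001, 60.5% and 77.5% of 100-base words also occur on the contigs. In those from 85450001 and 85475001 it was 33.0% and 34.0%. The part of misplaced reads in these peaks was not tested.

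**Figure D2:**
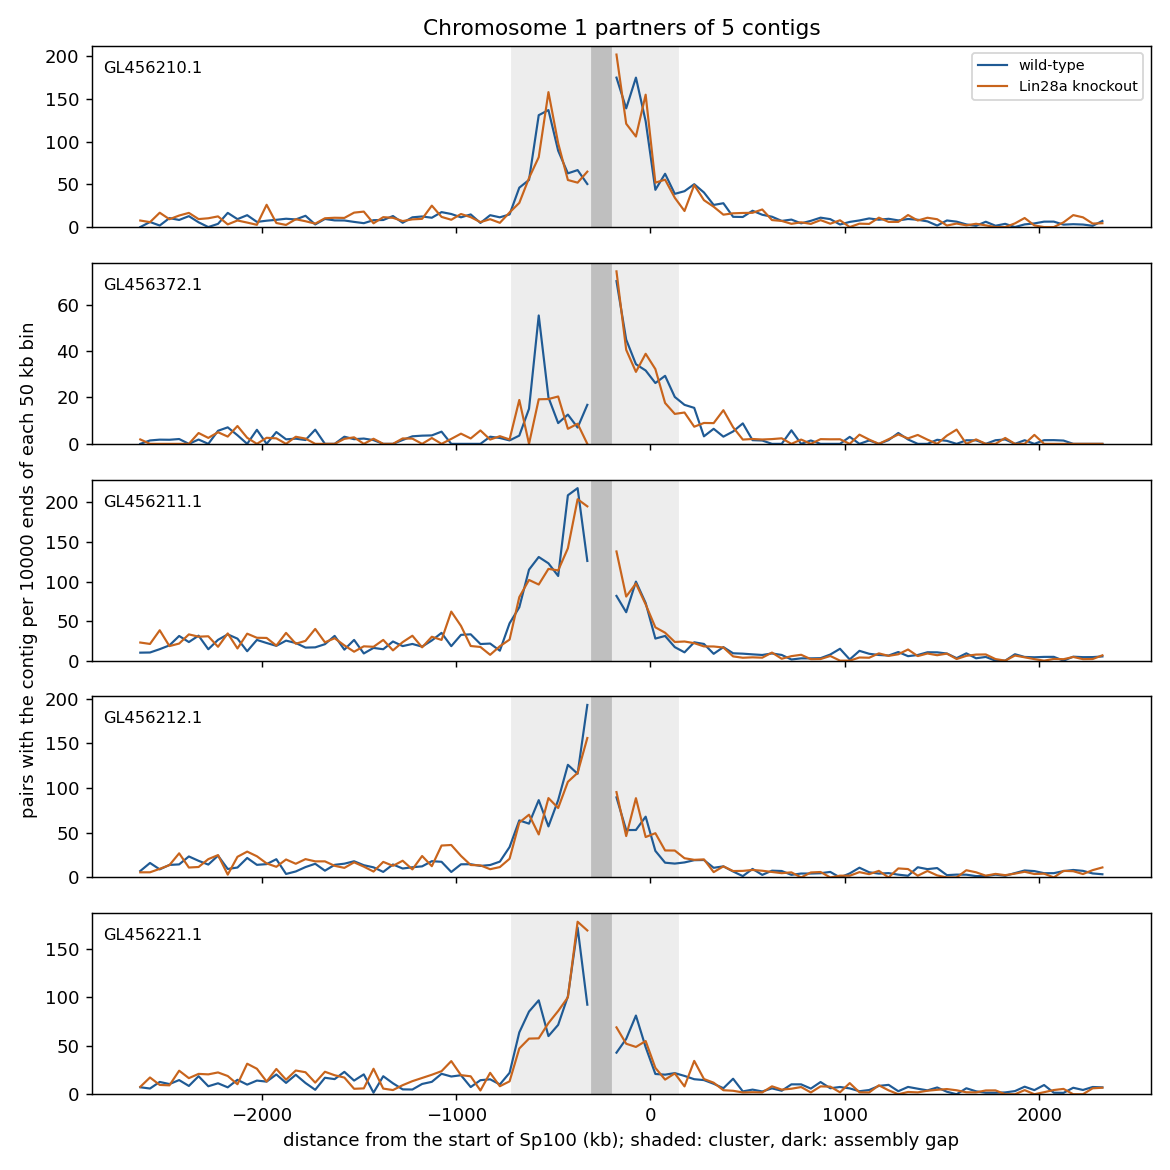
Each panel is 1 contig, the x axis is the distance from the start of Sp100 in kb, and the y axis is the pairs with that contig per 10000 ends of each 50 kb bin of chromosome 1 in each library. All 5 contigs rise inside the shaded cluster. GL456210.1 and GL456372.1 stay raised to the right of it, and GL456211.1, GL456212.1 and GL456221.1 to the left.

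Contacts within the cluster differed by side of the gap. In balanced maps of 50 kb bins, contacts were set over the mean at equal distance on the chromosome, and 3 bins at the gap (85300001 to 85450000) were left out. Contacts between the left arm, from *Slc16a14* to the gap, and the right arm, from the gap to *Sp100*, were 0.979 (0.858 to 1.11) of that mean in wild-type and 0.811 (0.689 to 0.948) in knockout cells. Contacts of the right arm, which holds *Sp110* and *Sp140*, with *Sp100* and the rest of the cluster were 1.74 (1.61 to 1.87) and 1.48 (1.34 to 1.63). Those of the left arm with *Sp100* and beyond were 0.468 (0.386 to 0.562) and 0.442 (0.352 to 0.549). Relative to distance on the assembly, *Sp100* and the rest of the cluster were thus in closer contact with the right arm than with the left arm. The left arm lies across the gap, whose true length is not known here. How much of this contrast is distance therefore cannot be told. The 50 kb bins from 85550001 and from 85600001 were at 0.951 and 1.00 of the mean with each other. *Sp110* and *Sp140* each reach into both bins, so this value does not tell the genes apart. Arm to arm contacts join sequence with shared repeats, and the part of misplaced reads in them was not tested.

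Mostly unique sequence on opposite sides of the cluster met less often than distance gives. The 500 kb left of it and the 500 kb right of it had 381 wild-type pairs, 0.450 (0.406 to 0.497) of the mean at equal distance, and 350 knockout pairs, 0.480 (0.431 to 0.533). At 1472 other positions with the same layout the medians were 0.962 and 0.957, and 0.815% and 2.24% of positions were lower. By the map the blocks are 1.30 Mb apart in wild-type and 1.31 Mb in knockout cells, as a mean for their contacts. The chromosome's mean contact fell to the measured level at 2.29 Mb (2.13 to 2.47) in wild-type and at 2.18 Mb (2.03 to 2.35) in knockout cells. The surplus was 0.989 and 0.876 Mb, with no allowance for compartments or boundaries, and the 5 contigs hold 0.801 Mb. Of the 100-base words of the contigs assigned to chromosome 1, 43.5 to 63.6% occur on other contigs or are repeated. The sum is therefore not shown to be distinct sequence. Whether sequence missing from the gap or a boundary gives the surplus cannot be told apart here.

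**Figure D3:**
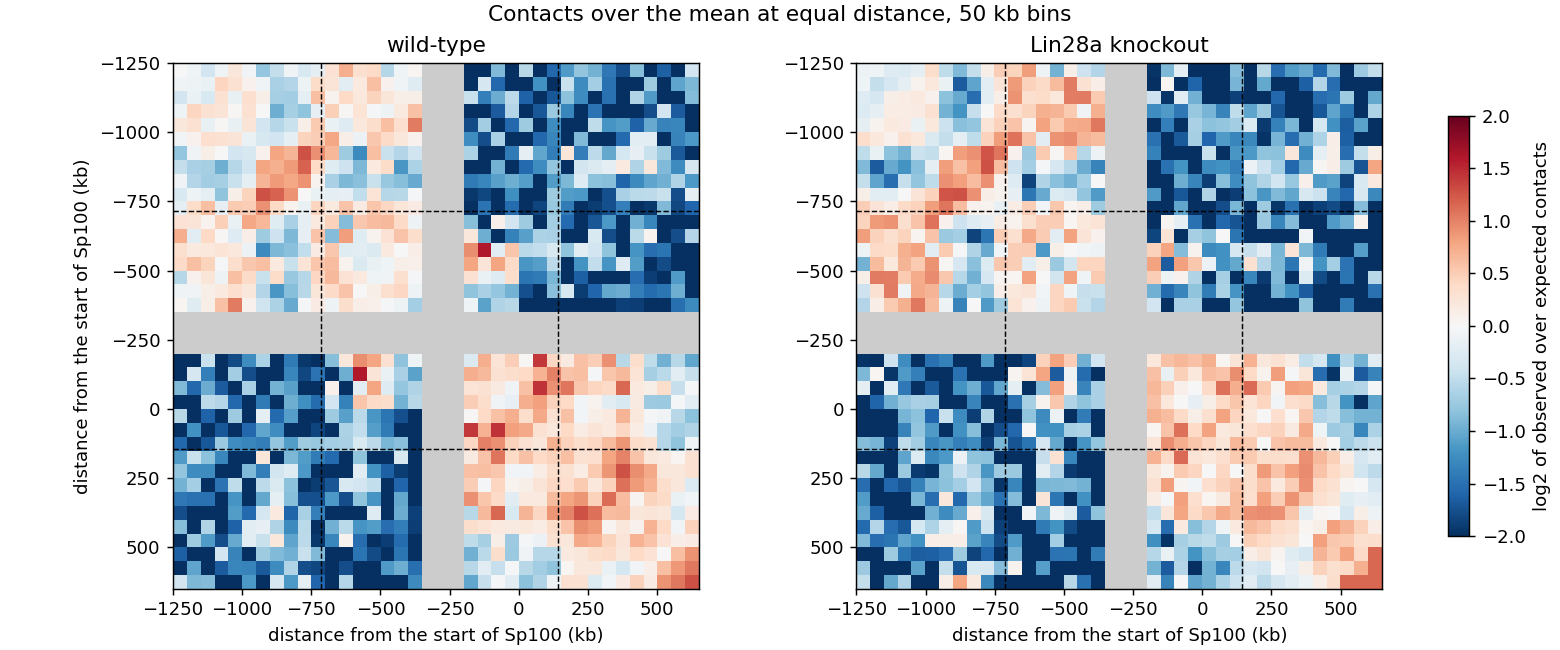
Contact maps of 50 kb bins around the cluster, with both axes in kb from the start of Sp100 and the cluster edges dashed. The colour is the log2 of contacts over the mean at equal distance, from -2 (blue, also for bins with no pair) to 2 (red), and bins that were left out are grey. In both libraries the blocks that join opposite sides of the gap are mostly blue, apart from that of the left arm with the right arm. Between the flanks the value is 0.450 of the mean in wild-type and 0.480 in knockout cells. Between the left arm and the right arm it is 0.979 and 0.811. Contacts of the right arm with Sp100 and beyond are mostly red, at 1.74 and 1.48 of the mean.

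Far cis pairs, with ends at least 20 kb apart, rarely stayed within the cluster. Both ends were inside it in 8.51% (8.19 to 8.83) of its far cis pairs in wild-type and 7.68% (7.34 to 8.03) in knockout cells. The 96 windows of equal length kept from 9.03 to 24.2% (median 17.0%) in wild-type and from 9.71 to 25.2% (median 16.8%) in knockout cells, so none was as low. This share was not corrected for coverage, which the gap and the repeats lower, and the thinnest window of the wild-type library (21233 pairs) had the lowest share (9.03%). It therefore does not show whether the cluster is a domain. The difference between the libraries (-0.833 percentage points, -1.30 to -0.364) was exceeded in the same direction by 8.33% of the windows. It was -2.62 in the smaller of the 2 sequencing runs of each library. Runs were told apart by read names alone, which can also part lanes, and the smaller run need not be the same in both libraries. Insulation, the log2 of contacts across a bin over the chromosome mean in a 300 kb square, was -0.142 (-0.249 to -0.0367) and -0.157 (-0.277 to -0.0407) at the lowest bin next to the left edge, and 39.4% and 36.6% of bins of the chromosome were lower. That bin began at 84900001 in wild-type and at 84950001 in knockout cells. At the right edge it was 0.292 (0.215 to 0.368) and 0.203 (0.122 to 0.283), above 84.3% and 76.1% of bins, but these bins began at 85800001 and at 85950001, so they are not the same place. With raw contacts the right edge turned to -1.13 and -1.42, and with a 500 kb square it was 0.110 and -0.159, so its sign rests on the settings. The lowest scores near the cluster were inside it, in the bin next to the right of the gap (-1.21 and -1.38) and the bin before it (-0.621 and -0.746). The gap has no contacts to count, and its part in these scores was not tested.

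Hi-C separates chromatin into an A compartment, which is rich in active genes, and a B compartment, which is poorer in them. The compartment track at 250 kb, scaled to SD units with A positive, had a local low at the cluster. The bin left of the gap was at -0.117 in wild-type and -0.520 in knockout cells, and the bin of *Sp110*, *Sp140* and *Sp100* was at 0.393 and 0.106. The bins to either side were at 1.11 and 1.13 on the left and at 1.21 and 1.14 on the right. The middle bin, which holds the gap, was left out. The mean of the cluster was 0.138 in wild-type and -0.207 in knockout cells, while the SD of the difference between the libraries over 348 bins was 0.153. Of all bins 4.89% were lower in knockout cells by more than 0.25, as both measured bins of the cluster were. Bins left of the cluster fell as well, from 0.654 to 0.108 (84250001 to 84500000) and from 0.727 to 0.326 (84500001 to 84750000). The mean of the cluster was above 55.7% of bins in wild-type and 51.1% in knockout cells, so its rank moved little.

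The same was seen at 50 kb, in the log2 ratio of contacts with A bins over contacts with B bins, a score added after the data had been seen. The bin of *Sp110* (from 85550001) had 0.290 in wild-type and 0.101 in knockout cells, that of *Sp140* (from 85600001) 0.175 and -0.0759, and that of *Sp100* 0.583 and 0.336. *Sp110* and *Sp140* reach into each other's bin, so their scores do not tell the genes apart. All 3 bins had a lower score in the knockout, and that of *Sp100* had the highest of the 3 in both libraries. Of the 14 cluster bins with a value, 12 were lower in knockout cells, against 46.1% of all bins, and 7 were lower by more than 0.2, against 14.4%. None was higher by more than 0.2 (0 of 14), against 19.7% of all bins. The 2 bins that were higher were those from the end of *Sp100* to the right edge. The median difference was -0.199 in the cluster and 0.0191 over 1733 bins. The 500 kb to the left had a median difference of -0.183 and those to the right 0.0824, and the left bin next to the cluster was higher in the knockout (0.624 and 0.753). With 1 library per group, a difference of this size was not tested against the spread between cultures.

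**Figure D4:**
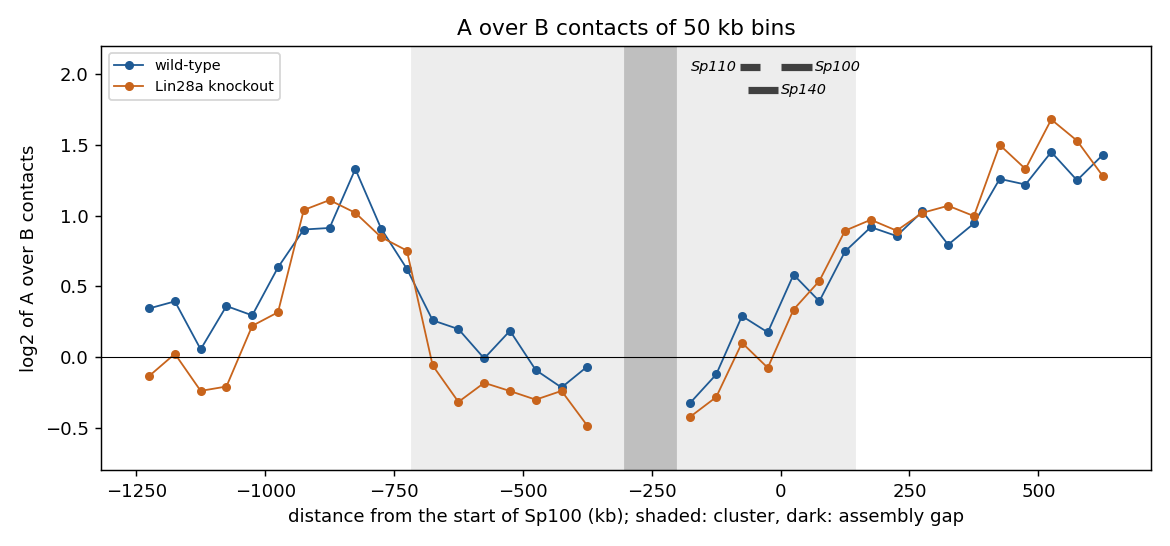
The x axis is the distance from the start of Sp100 in kb and the y axis the log2 ratio of A over B contacts of each 50 kb bin in each library. Most bins of the cluster lie lower than the bins next to it on either side, while bins further left fall within the range of its values, and the knockout points lie under the wild-type points in 12 of its 14 bins.

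Pairs to other chromosomes were less frequent at the cluster in knockout cells. The trans share, taken over pairs within chromosome 1 and with other assembled chromosomes, was 34.1% (33.7 to 34.5) in wild-type and 30.5% (30.0 to 31.0) in knockout cells, a difference of -3.60 percentage points (-4.25 to -2.96). In 96 windows of equal length the difference ran from -2.29 to 1.96 with a median of -0.406, so no window fell as far. By gene, the trans share of *Sp110* was 32.2% and 29.4%, that of *Sp140* 33.5% and 30.1%, and that of *Sp100* 31.4% and 29.6%. The difference was -2.85 (-5.54 to -0.161), -3.42 (-5.56 to -1.29) and -1.83 (-3.61 to -0.0485) for the 3 genes. It was -4.06 (-5.50 to -2.61) in the mostly unique stretch right of *Sp100*, while *Sp100*, which is also mostly unique, fell least of the 3 genes. The 500 kb on either side also had lower shares, by -2.06 (-2.65 to -1.46) on the left and -2.14 (-2.75 to -1.53) on the right, and the flank further left had 31.1% and 29.1%, while the flank further right did not differ beyond counting error (0.0546, -0.339 to 0.449). In the smaller of 2 sequencing runs of each library, which need not be the same run in both, the cluster's difference was -1.98.

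**Figure D5:**
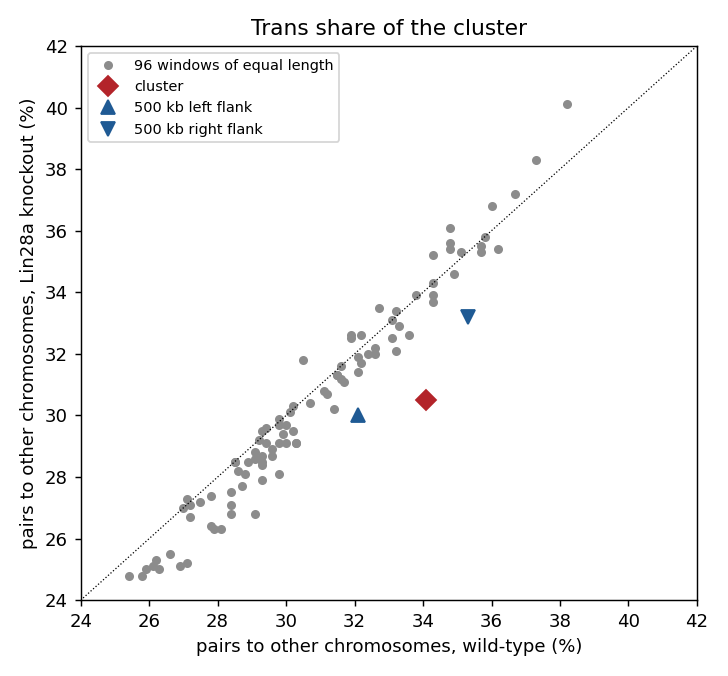
Each point is a window of chromosome 1, with the percent of its pairs that go to other chromosomes in wild-type cells on the x axis and in knockout cells on the y axis. The dotted line marks equal shares. The cluster (34.1% and 30.5%) lies further below the line than any of the 96 windows of equal length, which leave out its neighbourhood, and the 500 kb on either side lie below it too.

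The partners of the cluster on other chromosomes lay on all assembled chromosomes, and over whole chromosomes the cluster over flank ratio was furthest from 1 for chromosome Y. It was 1.57 (1.04 to 2.31) there in wild-type cells, from 35 pairs of the cluster and 114 of the flanks, and 6.23 (2.52 to 15.6) in knockout cells, from 12 and 11. Pairs with chromosome Y were fewer in the knockout for the cluster (35 of 16221 trans pairs in wild-type and 12 of 10760 in knockout cells) and more so for the flanks (114 of 83088 and 11 of 61461), so the higher ratio is no gain of contacts with it. For chromosome X it was 1.24 in knockout cells, with an interval above 1, and in wild-type cells the interval held 1 (0.999 to 1.22). Chromosome 11 was below 1 in both libraries, at 0.897 (0.838 to 0.959) and 0.901 (0.827 to 0.980). For each 1 Mb window with enough pairs, the share of the cluster's trans pairs was divided by the share of the flanks' trans pairs. Of 1749 windows, 79 (4.52%) had a ratio above 2 in wild-type and 142 (8.12%) in knockout cells, and 17 (0.972%) in both. With windows of 500 kb the share in both fell to 0.263%, and against flanks of 500 kb it was 0, so the count does not hold under these settings. The interval left out 1 in 4.97% and 5.03% of windows, near the share that intervals at this level leave out. Of the 17 windows, 2 had intervals above 1 in both libraries. Of these, 68 to 69 Mb of chromosome 13 is described here, with *Mtrr* and *Fastkd3*, where the cluster had 12 and 11 pairs and the flanks 23 and 13. The window was chosen by the ratio itself, so its values are a description. Of its pairs with the cluster, 7 of 12 in wild-type and 7 of 11 in knockout cells fell in 1 stretch of 20 kb. That stretch lies on a repeat copy and is described below.

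In windows of 20 kb, a scale added after the data had been seen, 3 of the 6 windows with most pairs of the cluster lay on copies of 1 element. A window on chromosome 13 (68440001 to 68460000), inside the 1 Mb window named above, had 7 pairs with the cluster in each library, against 6 and 2 with the flanks. All 14 partner ends fell in sequence that matches the cluster, of which the longest run was 8889 bases at 93.8% identity. A window on chromosome Y (10700001 to 10720000) had 9 and 5 of the pairs with that chromosome, all in matching sequence, with a run of 5083 bases at 93.8%. A window on chromosome 4 (144080001 to 144100000) had 4 and 3, all in matching sequence, with a run of 8897 bases at 94.6%. All 3 runs match the cluster within 85136826 to 85145677, left of the gap. The pairs of these windows reached 7 and 6, 7 and 4, and 4 and 3 different 25 kb bins of the cluster, and the windows have 15, 2 and 14 separate matches of at least 1 kb in the cluster. Of these 35 partner ends 20 had a mapping quality of 30 or more, and the part of misplaced reads was not tested. Another window of chromosome 13 (64820001 to 64840000) had 7 and 3 pairs, with ratios to the rest of chromosome 1 of 20.2 (7.70 to 44.7) and 17.5 (3.40 to 56.5). Only 2 of its 7 wild-type ends and 1 of its 3 knockout ends lay in matching sequence. Windows on chromosomes 17 and 11 with 5 and 3 and with 5 and 1 pairs had ratios to the rest of chromosome 1 of 1.16 and 0.799 and of 0.962 and 0.253, with intervals that held 1. All 6 windows were chosen by their pairs with the cluster, so their ratios and intervals are a description.

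Genes of PML nuclear bodies were looked up among the partners. The list held 13 genes, among them *Pml*, which encodes the shell protein of the bodies, and *Daxx* and *Atrx*, which deposit histone H3.3. In 1 Mb around each gene, 0 of 13 intervals of the cluster over flank ratio left out 1 in either library. Over all 1749 windows 4.97% in wild-type and 5.03% in knockout cells did. For a list of 13 genes, 0 is near that share, so the count does not set the list apart. The median ratio was 1.00 in wild-type and 0.779 in knockout cells, beside 0.981 and 0.952 over all 1749 windows. The *Pml* window had 9 and 5 pairs with the cluster, and the *Daxx* window 14 and 8. At these counts a moderate excess was not detectable.

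By its whole contact profile at 250 kb, the cluster was most like the bins of chromosome 1 that begin at 78250001 (*Sgpp2* and *Farsb*, r = 0.313), 42500001 (*Pou3f3*, r = 0.254) and 71250001 (no protein-coding gene, r = 0.251), over 318 bins of the summed map. The median r over 306 bins was 0.0733. In single libraries the r of the 3 bins was 0.286, 0.188 and 0.181 in wild-type and 0.161, 0.158 and 0.0604 in knockout cells. Correlations this weak in sparse counts show no close likeness, and they are given as a description.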

How the data were processed

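Hi-C read pairs of 1 wild-type and 1 *Lin28a* knockout mouse ES cell library were analysed. Per the submitters' processing notes CASAVA 1.8, Bowtie2, HiC-Pro and genome build mm10 were used. The deposited lists give 1 line per pair with both positions, strands and restriction fragments, and a mapping quality score of 11 to 42 for each end. The authors had removed ends of lower score before deposit. The fragment borders matched GATC sites for 99.6% of 11552 ends checked. No normalization had been applied. The lists analysed here were partial, and only pairs with a first end on the first 91 Mb of chromosome 1 were used. Pairs whose first end lies on another chromosome were not analysed here.

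Ends and pairs were counted in the cluster, its genes, 25 and 50 kb bins, flanks and 96 windows of equal length. For shares the Clopper-Pearson interval was used, for counts the exact Poisson interval and for ratios the exact binomial split of the counts, at 95%. The interval of a difference of shares combines the half-widths of both as a root of squares. Insulation was given exact Poisson bounds of the pairs in its square in place of the planned resampling of the map. PCR reads without molecular identifiers are not independent molecules, so intervals cover counting error only. Words of 100 bases were counted over the whole reference for unique sequence. Maps used 2448749 and 1973740 far cis pairs and were balanced by iterative correction, leaving out bins with under 20% of the median. The compartment track was the leading eigenvector at 250 kb, with the wild-type pairs thinned to the knockout depth. Sequences came from RefSeq (GRCm38.p6) and were aligned with blastn 2.17.0. Other steps used Python 3.11.15, numpy 2.4.6 and scipy 1.17.1, and the measures were tested on simulated data. A partner window was in excess where its ratio was over 2 in both libraries, among windows with at least 20 pairs.

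The genes, the list of PML body genes and the tests were chosen with earlier results of these data known. The text names the 3 genes and some of the other protein-coding genes of the 1.2 Mb window by their ends per kb. Also to be named were up to 3 contigs and 5 partner windows of largest excess and the 3 bins of most similar profile. Listed genes were to be given with values where their interval left out 1. Some of the partner windows are not reported here. All 5 contigs are given because their pairs were summed. No test was made, as each group has 1 library. The alternatives changed mapping quality, flanks, denominator, sequencing run, least distance, bin, square and window sizes, and balancing.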

Additional observations from a re-analysis of the deposited data

How the results depend on the processing

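Of the values that answer a comparison, 34 stayed within their counting interval under an alternative, 29 left it, 2 of them with a change of side that is given below, and another 4 changed side. These 4 were the coverage of the cluster over the flanks, which was 1.05 in wild-type and 1.03 in knockout cells per unique base, and 1.51 and 1.47 per base unique in 50 letters, a setting added after seeing the data. With a mapping quality of 30 or more at both ends this coverage was 0.511 and 0.497, per restriction fragment 0.523 and 0.511, without cis pairs under 20 kb 0.593 and 0.579, and in the smaller sequencing run 0.587 and 0.548. From *Sp110* to *Sp100* alone it was 0.753 and 0.720, left of *Sp110* alone 0.465 and 0.461, and against flanks of 500 kb 0.553 in knockout cells. Its knockout over wild-type ratio was 0.934 in the smaller run, 0.956 from *Sp110* to *Sp100* and 0.990 left of *Sp110*.

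The smaller run was chosen by size within each library, so it need not be the same run in both. In it the knockout minus wild-type difference was -2.62 percentage points for far cis pairs kept inside and -1.98 for the trans share. For the contig excess the smaller run gave 5.73 and 8.29, and there the knockout over wild-type ratio of the cluster's contig share, without the flanks, was 1.28, on the other side of 1 from the 0.979 of both runs. Flanks of 500 kb gave 4.60 and 4.35, and a quality of 30 gave 5.39 in knockout cells. Insulation depended on the settings at both edges. At the left edge it was -0.263 and -0.432 with a 200 kb square, -1.92 and -2.03 with raw contacts and -0.0698 and -0.0835 with a quality of 30. At the right edge it was, with raw contacts, -1.13 and -1.42, a change of sign, and with a 500 kb square 0.110 and -0.159. The difference between the libraries there, taken between bins that are not the same, was 0.0812 with a 200 kb square, a change of side from -0.0893, -0.268 with a 500 kb square and -0.290 with raw contacts. Partner windows above 2 in both libraries were 0.263% with windows of 500 kb and 0 of those tested against flanks of 500 kb. The cause of these changes was not tested. The lower compartment value of the knockout kept its direction at 100 kb (-0.236), by A over B contacts (-0.196), with a quality of 30 (-0.387) and without thinning (-0.397). The knockout value itself was nearer 0 at 100 kb (-0.0595) and by A over B contacts (-0.0524).

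No paired analysis was possible because each group has 1 list of pairs and the sequencing runs are matched to no replicate. Depth limits the partner windows, with few pairs each, and reads of repeated sequence limit every value of *Sp110* and *Sp140*.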
